A study of Mus musculus with 12 samples.

Results

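The 10 genes described here were *Gfap*, *Aqp4*, *Aldh1l1*, *Slc1a2*, *Slc1a3*, *S100b*, *Apoe*, *Sparcl1*, *Glul* and *Clu*, which are widely used to recognise astrocytes. They were taken by gene symbol from count tables of 24525 genes, and all 10 had enough reads to be fitted with the 13112 genes tested. They were selected on these libraries: *Gfap* was singled out because its reads differed between *Ythdf2*-/- and wild-type libraries, and the other 9 were listed with that result known. The difference between genotypes in these 10 genes is therefore given as a description with no test.

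Astrocytes are the glial cells that clear glutamate and potassium from around neurons, supply lipid and regulate water flow. In the forebrain they arise from the same neural stem and progenitor cells (NSPCs) that first make neurons. *Gfap* encodes the intermediate filament protein of astrocytes and comes on as progenitors become able to respond to cytokines of the LIF and CNTF family, whose receptors activate the transcription factor STAT3. Several of the other genes, *Slc1a3* among them, are already made by radial glia, so they mark the glial lineage more broadly than mature astrocytes. YTHDF2 is a reader protein that binds N6-methyladenosine (m6A) in mRNA and promotes the decay of the mRNA it binds.

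Poly(A) RNA had been taken from neurospheres, free-floating clusters of NSPCs, grown from the forebrain of C57BL/6 embryos at E14.5 and harvested at passage 1 in medium with N2, B27, 20 ng/ml EGF and 10 ng/ml bFGF. The groups were 3 wild-type and 3 *Ythdf2*-/- input libraries, which are the unenriched RNA saved before m6A immunoprecipitation, and the 6 immunoprecipitated samples were not analysed here. The knockout removed the 5′ UTR and first exon of *Ythdf2* in all tissues through a ubiquitous Cre, so it is neither specific to a cell type nor limited to the culture. The sources used here do not say how many embryos stand behind a library, so the spread between libraries may be in part technical. Libraries held 11029827 to 13185778 counted reads, and values are CPM, read counts scaled to a common library total after TMM normalization by edgeR.

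The libraries differed in 2 ways that touch the values below. Wild-type replicate 3 stood apart, at 91.0 on a first principal component (74.2% of the variance among the 2000 most variable genes) on which the other 5 libraries lay between -30.6 and -6.04. It was the highest of the 6 libraries for 33.8% of all genes and the lowest for 34.4%. Reads of 4 Y-linked genes summed to 1111, 1638 and 2147 in wild-type replicates 1 and 2 and *Ythdf2*-/- replicate 3, and to 1, 0 and 1 in wild-type replicate 3 and *Ythdf2*-/- replicates 1 and 2. The targeted gene, *Ythdf2*, was at 71.8, 73.3 and 91.3 CPM in wild type and at 11.7, 14.6 and 11.1 CPM in *Ythdf2*-/-, a log2 fold change of -2.66 ± 0.18 (SE, edgeR adjusted p = 0.0547). At an adjusted p under 0.05 the quasi-likelihood test of edgeR called 0.00% of the 13112 genes, with 476 at an unadjusted p under 0.05, and DESeq2 called 31. Without wild-type replicate 3, edgeR called 2 genes, or 0.0151% of 13283, which were *Ythdf2* and *Cpne7*, the latter named after its value was seen.

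*Gfap* lies on the minus strand of chr11:102887336-102897200 in GRCm38.p6 and has 9 exons in its longest RefSeq mRNA. The letters bound by STAT proteins, TTCNNNGAA, read alike on both strands and were found 3 times between 2000 bases before and 50 bases after the start of *Gfap*. At least 1 such match lay in the same window of 6 of the 10 genes and of 49.8% of 23278 RefSeq genes, so a match is common. The letters TTCCGAGAA, those of the known STAT3 element of the *Gfap* promoter, whose CpG is methylated in early progenitors, are 1 of these matches. They began 1446 bases before its start and lay in the windows of 0.657% of all genes and of no other of the 10. The 3 windows of *Gfap* are shown because the measured level of *Gfap* is the value on which the description turns. Each is given 5′ to 3′ on the strand of the gene, from the RefSeq genome, with the match in capitals. The first 2 lie upstream of the annotated start, and the match in the last one spans it.
Gfap, chr11:102899096-102899124: gtagttggctTTCTGTGAAttccatacct
Gfap, chr11:102898628-102898656: cttcgatgctTTCCGAGAAgtctattgag
Gfap, chr11:102897184-102897212: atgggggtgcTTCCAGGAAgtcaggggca

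*Gfap* was lower in each *Ythdf2*-/- library than in any wild-type library. It was at 436, 624 and 3043 CPM in wild-type replicates 1, 2 and 3, and at 127, 87.6 and 5.55 CPM in *Ythdf2*-/- replicates 1, 2 and 3. The means were 1368 ± 1454 CPM in wild type and 73.5 ± 62.1 CPM in *Ythdf2*-/- (SD, n = 3 each), so the SD of the wild type exceeded its own mean. Wild-type replicate 3 held 5.74 times the mean of the other 2 wild-type libraries, and *Ythdf2*-/- replicate 3, with 69 reads, held the least. The highest library was 549 times the lowest, and only 1 gene among all tested, *Enpp6* of the oligodendrocyte lineage, had a larger range on the log2 scale. The log2 fold change of *Gfap* was -4.22 ± 1.30 (SE) and ranked 4 from the lowest of 13112. Leaving out wild-type replicate 3 gave -2.85 with an SE of 0.9998, and the *Ythdf2*-/- mean went from 5.37% of the wild-type mean to 13.9%. In whole neurospheres, fewer cells making a gene and less RNA of it per cell cannot be told apart.

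*Clu* was the other member whose groups did not overlap. It encodes clusterin, a secreted chaperone that is carried with lipoproteins. It was at 100.4, 122 and 250.4 CPM in wild type and at 47.2, 63.8 and 23.2 CPM in *Ythdf2*-/-, so wild-type replicate 3 was again highest and *Ythdf2*-/- replicate 3 again lowest. The log2 fold change was -1.81 ± 0.49, and -1.31 ± 0.38 without wild-type replicate 3. Complete separation in the lower direction was found for 2 of the 10 members, and for 4.92% of all genes tested. The members were selected with this comparison known, so nothing is read from that count.

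*Aqp4*, the water channel of astrocyte endfeet, had the same extremes but not the same order between them. It was at 145, 165 and 1105 CPM in wild type and at 225, 155 and 54.7 CPM in *Ythdf2*-/-. Wild-type replicate 3 was 7.15 times the mean of the other 2 wild-type libraries, while *Ythdf2*-/- replicates 1 and 2 lay above or between them. The log2 fold change was -1.70 ± 0.93 with all 6 libraries and -0.09 ± 0.52 without wild-type replicate 3, where the *Ythdf2*-/- mean was 93.7% of the wild-type mean. The size of the difference in *Aqp4* thus rested on 1 library.

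**Figure D1:**
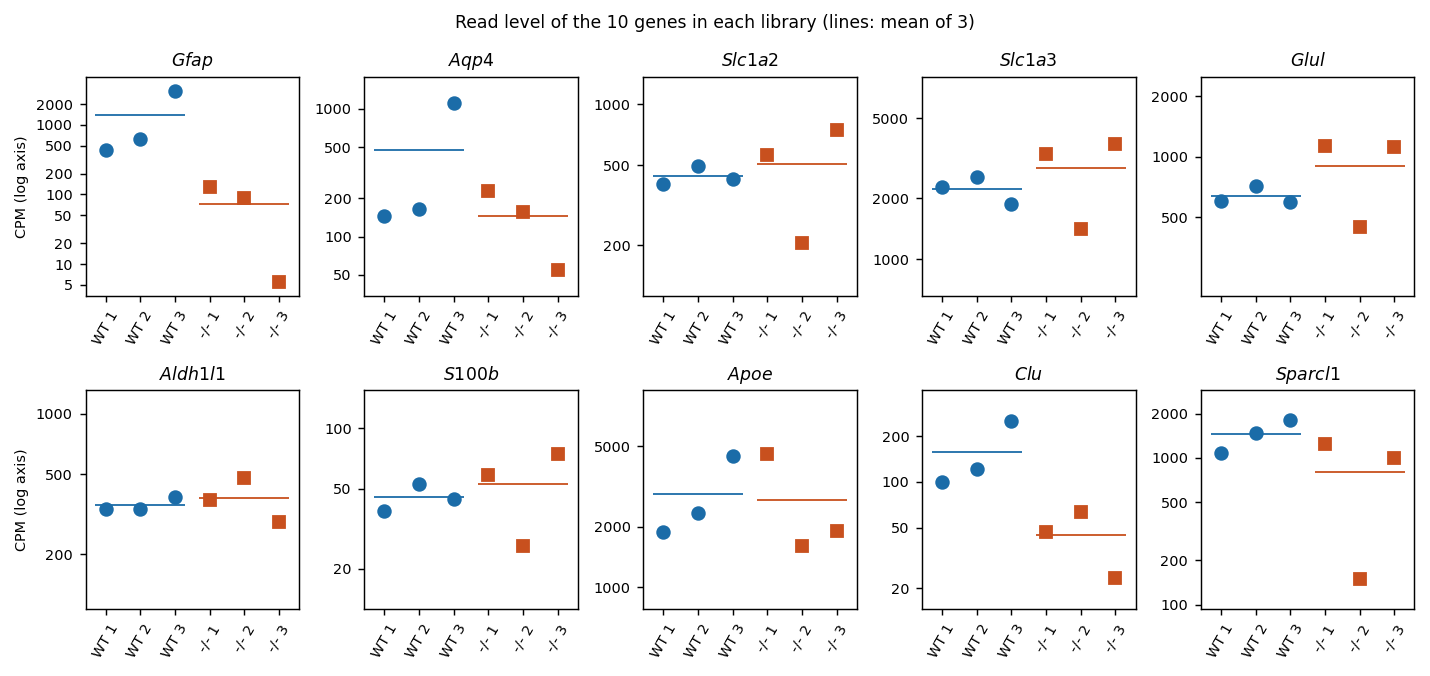
CPM of the 10 genes on log axes, 1 panel a gene, with 3 wild-type libraries (WT, blue circles) and 3 Ythdf2-/- libraries (orange squares); lines are the group means. Gfap runs from 5.55 to 3043 CPM and the groups of Gfap and Clu do not overlap, whereas Slc1a2, Slc1a3, Glul and S100b are lowest in Ythdf2-/- replicate 2.

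The glutamate transporters did not follow *Gfap*. *Slc1a3*, which encodes GLAST, was at 2286, 2549 and 1870.0 CPM in wild type and at 3342, 1406 and 3739 CPM in *Ythdf2*-/-. *Slc1a2*, which encodes GLT-1, was at 402, 494 and 424 CPM in wild type and at 564, 204 and 749.6 CPM in *Ythdf2*-/-. In both genes the 3 wild-type libraries lay inside the range of the *Ythdf2*-/- libraries, whose replicate 2 was lowest and replicate 3 highest of all 6. Their log2 fold changes were 0.34 ± 0.39 for *Slc1a3* and 0.20 ± 0.45 for *Slc1a2*, each smaller than its own SE. Leaving out *Ythdf2*-/- replicate 3 turned *Slc1a2* to -0.20.

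*Glul* and *S100b* were like the transporters in that the wild-type libraries lay inside the range of the *Ythdf2*-/- libraries. Unlike the transporters, *Glul* was highest in *Ythdf2*-/- replicate 1. *Glul*, the glutamine synthetase that turns captured glutamate into glutamine, was at 604, 713 and 598 CPM in wild type and at 1129.6, 445 and 1112 CPM in *Ythdf2*-/-, a log2 fold change of 0.49 ± 0.37. *S100b*, a calcium-binding protein, was at 38.9, 53.0 and 44.7 CPM in wild type and at 58.6, 26.1 and 74.4 CPM in *Ythdf2*-/-, a log2 fold change of 0.22 ± 0.38. Both groups overlapped in each gene, and *Ythdf2*-/- replicate 2 was lowest in each. The wild-type libraries lay close together, with an SD of 64.6 CPM around a mean of 638 for *Glul*, against 390.0 around 895 in *Ythdf2*-/-. *Aldh1l1*, a folate enzyme often used as a pan-astrocyte marker, was the steadiest of the 10, at 338, 336 and 386 CPM in wild type and at 372, 481 and 289.9 CPM in *Ythdf2*-/-. It was highest in *Ythdf2*-/- replicate 2 and lowest in replicate 3, the reverse of the transporters, and its log2 fold change was 0.11 ± 0.21.

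The remaining secreted products each had a pattern of their own. *Apoe*, the apolipoprotein that astrocytes use to export lipid, was at 1882, 2325 and 4488 CPM in wild type and at 4613, 1596 and 1897 CPM in *Ythdf2*-/-, so its highest values were in 1 library of each genotype. Its log2 fold change was -0.10 ± 0.53, and 0.36 ± 0.48 without wild-type replicate 3. *Sparcl1*, the matrix protein hevin, was at 1082, 1472 and 1798 CPM in wild type and at 1239.8, 149 and 996 CPM in *Ythdf2*-/-. *Ythdf2*-/- replicate 2 stood far below the others in *Sparcl1*, and the log2 fold change of -0.87 ± 0.71 ran from -1.33 without *Ythdf2*-/- replicate 1 to -0.36 without replicate 2.

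**Figure D2:**
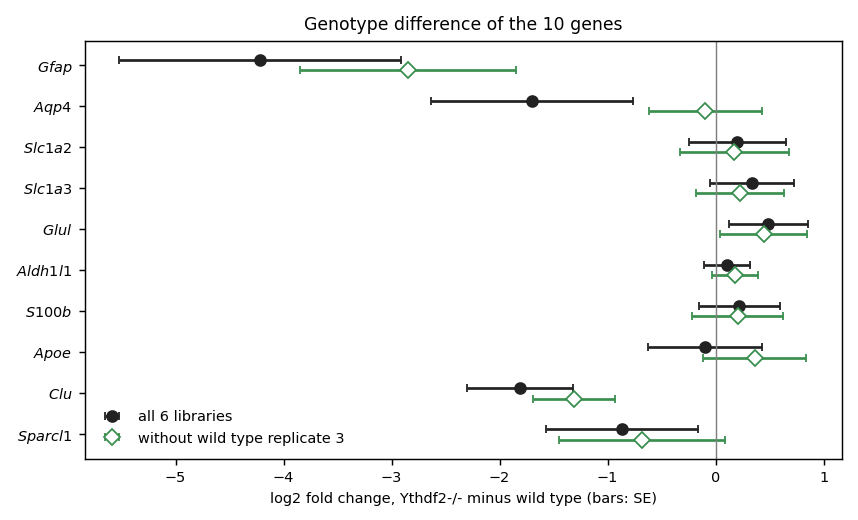
Log2 fold change (Ythdf2-/- minus wild type, edgeR) of each gene with its SE, from all 6 libraries (black circles) and without wild-type replicate 3 (green open diamonds). Gfap is at -4.22 and -2.85 and Clu at -1.81 and -1.31, while Aqp4 is at -1.70 and -0.09 and the other 7 lie between -0.87 and 0.49.

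The 9 genes other than *Gfap* had a median log2 fold change of 0.11, and the 13112 genes tested had one of -0.01. The median of the 9 was 0.18 without wild-type replicate 3, and its sign turned when Y-linked reads entered the fit (-0.04) and without *Ythdf2*-/- replicate 3 (-0.10). Y-linked reads split the libraries into 2 sets, each with both genotypes. Among the 3 libraries with such reads, *Gfap* was at 436 and 624 CPM in wild type and 5.55 CPM in *Ythdf2*-/-, and among the 3 without, at 3043 CPM in wild type and 127 and 87.6 CPM in *Ythdf2*-/-. *Aqp4* and *Clu* were also lower in *Ythdf2*-/- within each set, as was *Sparcl1*, 4 of the 10 members in all. Of all genes tested, 15.5% were lower and 15.6% higher within both sets. The split was chosen after the values were seen and the members were selected on the same libraries, so nothing is read from that count.

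Over the 6 libraries, 7 of the 10 genes formed 2 sets, and *Aldh1l1*, *Apoe* and *Sparcl1* were in neither. The log2 CPM of *Gfap* had a Pearson's r of 0.98 with *Clu* and 0.85 with *Aqp4* (Spearman's rho 0.94 and 0.71). *Slc1a2*, *Slc1a3*, *S100b* and *Glul* had r of 0.90 to 0.99 with one another and of -0.51 to -0.30 with *Gfap*. *Aldh1l1* ran against that second set, with r of -0.90 to -0.70, and *Apoe* and *Sparcl1* had positive r with *Gfap* (0.48 and 0.37) and with each gene of the second set. By rank *Sparcl1* was closer to *Gfap* than *Aqp4* was, with a rho of 0.89. Without wild-type replicate 3 the r with *Gfap* was 0.96 for *Clu*, 0.80 for *Aqp4* and -0.39 for *Slc1a3*. Leaving out the 2 libraries farthest from the median in *Gfap*, wild-type replicate 3 and *Ythdf2*-/- replicate 3, gave 0.90 for *Clu* and 0.71 for *Sparcl1* but -0.38 for *Aqp4*, so the relation of *Aqp4* to *Gfap* rested on those 2 libraries. The negative r of the second set with *Gfap* rested on them too, since over the other 4 libraries it was 0.52 for *Slc1a2*, 0.34 for *Slc1a3*, 0.43 for *S100b* and 0.07 for *Glul*. These correlations share libraries and depth, 6 points are few, and no p is attached to them.

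**Figure D3:**
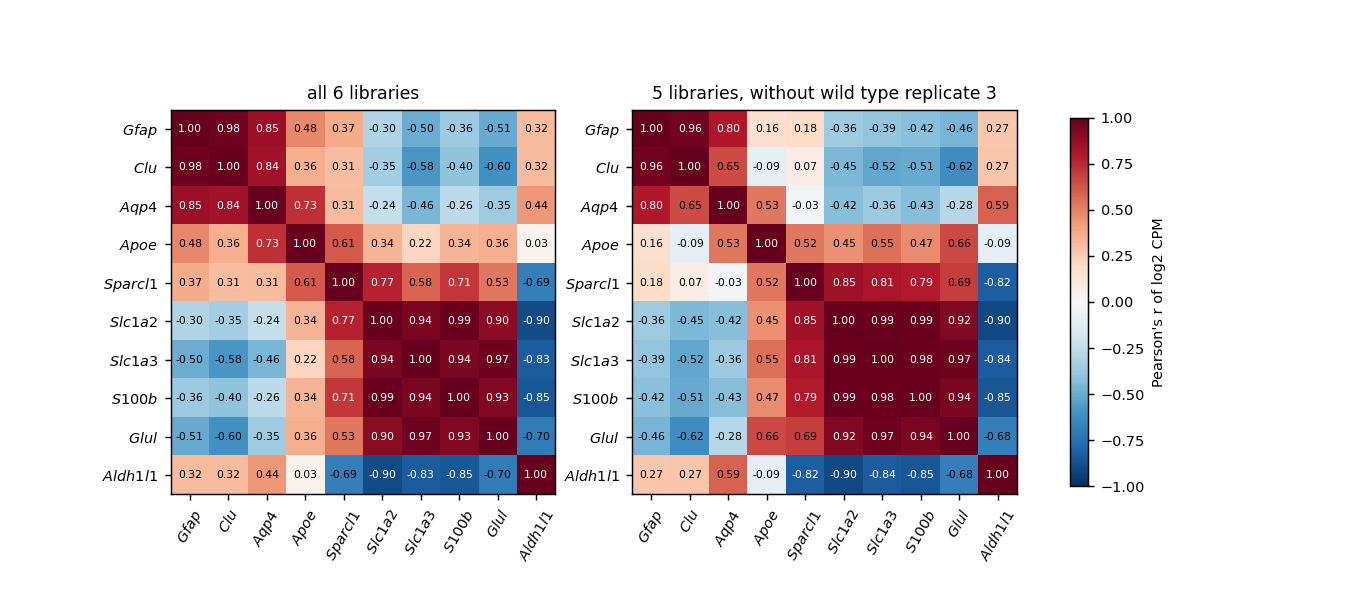
Pearson's r of log2 CPM between the 10 genes, over all 6 libraries (left) and over the 5 without wild-type replicate 3 (right); red is positive, blue negative. Gfap, Clu and Aqp4 form a block (r 0.84 to 0.98 over 6 libraries), and Slc1a2, Slc1a3, S100b and Glul form another (r 0.90 to 0.99).

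Levels were compared between genes as CPM per kilobase of the mean transcript length deposited by the authors. *Apoe* was highest at 2204 ± 1083 CPM per kilobase (SD over all 6 libraries), and its lowest library lay above the highest of the next gene, *Slc1a3*, at 602 ± 209. *Sparcl1* at 360.3 ± 179, *Glul* at 273 ± 102 and *Gfap* at 267 ± 429.8 followed, and each overlapped its neighbours in range. *Gfap* alone ran from 2.05 to 1126 CPM per kilobase, from below every other member's lowest library to above all but *Apoe*. The place of *Gfap* differed between genotypes, at 506 ± 538 CPM per kilobase in wild type, between *Slc1a3* and *Sparcl1*, and at 27.2 ± 22.97 in *Ythdf2*-/-, between *Aqp4* and *Clu* (SD, n = 3 each). Over all 6 libraries *Aldh1l1* came next at 119 ± 21.0, then *Aqp4* at 59.2 ± 75.7, *Clu* at 55.8 ± 44.9, *Slc1a2* at 41.5 ± 15.9 and *S100b* at 29.7 ± 10.1, again with overlapping ranges between neighbours. Together the 10 genes took 0.474% to 1.39% of the counted reads of a library.

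To see whether astrocyte genes in general followed *Gfap*, 69 others were listed by function, of which 67 were tested. edgeR called 0 of the 67 at an adjusted p under 0.05, and DESeq2 and limma-voom also called 0. At an unadjusted p under 0.05 edgeR had 1 lower and 2 higher, against 476 of all 13112 genes in both directions. In 1 of 67 (1.49%) all *Ythdf2*-/- libraries were lower than all wild-type libraries, against 4.92% of all genes, and in 4 of 67 (5.97%) all were higher, against 5.24% of all genes. Both shares were near or below the background. Without wild-type replicate 3 the counts were 3 lower (4.48%, background 20.1%) and 9 higher (13.4%, background 18.8%). The median log2 fold change of the 67 was 0.06, and 35 had a positive and 32 a negative r with *Gfap*.

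Among 18 genes of transport and channels the median log2 fold change was -0.04. *Atp1b2*, a subunit of the sodium pump, and *Slc4a4*, a bicarbonate cotransporter, were among the most highly counted. *Slc4a4* was at 642, 781 and 857 CPM in wild type and at 963, 326 and 1162 CPM in *Ythdf2*-/-, the same order as the glutamate transporters within *Ythdf2*-/-. *Ythdf2*-/- replicate 2 was the lowest library for 13 of these 18 genes, and for 14.3% of all genes. *Grin2c*, a subunit of NMDA receptors, was the 1 gene whose *Ythdf2*-/- libraries were all lower, at 1.80, 1.30 and 1.74 CPM in wild type and 0.937, 0.074 and 0.964 CPM in *Ythdf2*-/-, near the detection limit. *Slc14a1*, a urea transporter, came closest to *Gfap* among all 67 (r = 0.91), at 1.62, 3.28 and 18.7 CPM in wild type and 0.341, 1.78 and 0.0804 CPM in *Ythdf2*-/-, but its groups overlapped.

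Among 19 metabolic genes tested the median log2 fold change was 0.00, and no gene separated the genotypes. *Glud1*, the glutamate dehydrogenase, was at 829, 915 and 1634 CPM in wild type and at 1627, 930.5 and 973 CPM in *Ythdf2*-/-, a pattern like that of *Apoe*. *Ndrg2* was at 393, 551 and 1688 CPM in wild type and at 1154, 346 and 299 CPM in *Ythdf2*-/-. *Acsbg1*, an acyl-CoA synthetase, went the other way in wild-type replicate 3, at 884, 1065 and 65.9 CPM in wild type against 795, 387 and 1349.9 CPM in *Ythdf2*-/-. Wild-type replicate 3 was thus not high in astrocyte genes throughout, being highest for 25 and lowest for 16 of the 67. Over all genes it was highest for 33.8% and lowest for 34.4%. *Fbxo2* (r = 0.83 with *Gfap*), a ubiquitin ligase subunit, had a log2 fold change of -0.54 ± 0.40, and -0.09 ± 0.30 without wild-type replicate 3.

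Among 30 surface, secreted and matrix genes tested the median log2 fold change was 0.18, and the *Ythdf2*-/- libraries were all higher in 4 (13.3%, background 5.24%), or in 7 without wild-type replicate 3 (23.3%, background 18.8%). The 4 were *Ncan* and *Gpc6*, which encode proteoglycans, *Fzd2*, a Wnt receptor, and *Lcat*, which esterifies cholesterol. *Ncan* was at 835, 845 and 719 CPM in wild type and at 1147, 1026 and 1550.4 CPM in *Ythdf2*-/- (log2 fold change 0.63 ± 0.21, edgeR adjusted p = 0.999). It was lowest where *Gfap* was highest and highest where *Gfap* was lowest, with an r of -0.98, and *Gpc6* had an r of -0.96. The abundant *Ednrb* and *Bcan* overlapped between genotypes, with log2 fold changes of 0.18 ± 0.35 and 0.27 ± 0.26. Both were higher in all *Ythdf2*-/- libraries once wild-type replicate 3 was left out, at 0.57 ± 0.24 and 0.50 ± 0.20. *Sparc*, *Scara3* and *Ntsr2* had r of 0.84, 0.83 and 0.82 with *Gfap* and log2 fold changes of -0.87 ± 0.52, -0.92 ± 0.70 and -1.36 ± 0.67, with overlapping groups in each. These were -0.18, -0.87 and -0.44 without wild-type replicate 3, so the values of *Sparc* and *Ntsr2* rested on that library.

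**Figure D4:**
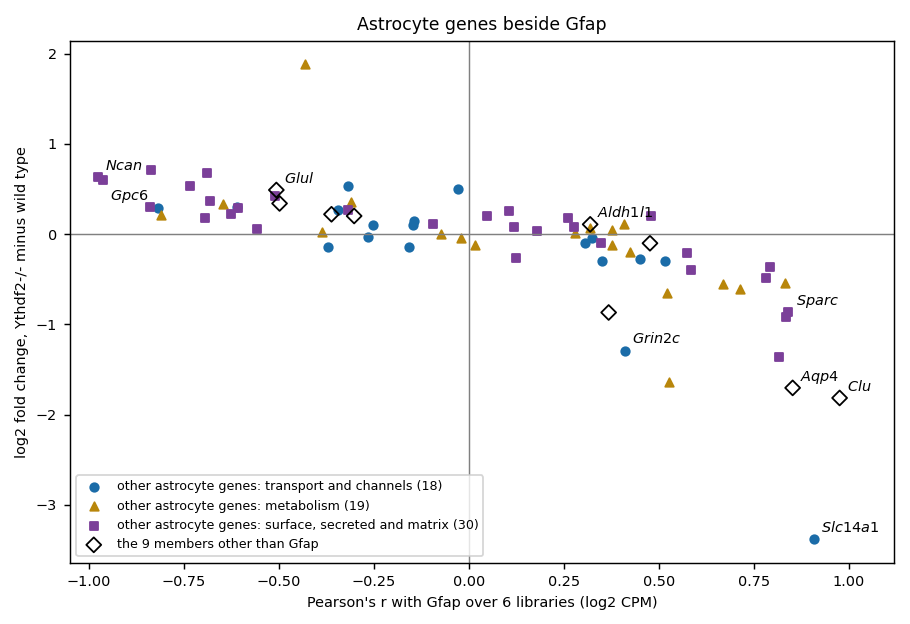
Each point is a gene: Pearson's r with Gfap over 6 libraries on the x axis and log2 fold change (Ythdf2-/- minus wild type) on the y axis, for the 67 other astrocyte genes in 3 groups and the 9 members other than Gfap (open diamonds). Both axes use the same 6 libraries, so genes like Gfap must lie low on the right; 35 of the 67 lie to the right of 0 and 32 to the left.

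Genes that act on *Gfap* transcription were then described from a list of 44, of which 39 were tested. edgeR called 0 at an adjusted p under 0.05, and DESeq2 called *Socs3*. At an unadjusted p under 0.05 edgeR had 2 lower and 0 higher, against 476 of all 13112 genes in both directions. Receptors of the LIF family differed from one another. *Osmr*, the receptor chain for oncostatin M, was at 6.16, 7.55 and 23.7 CPM in wild type and at 3.58, 2.59 and 0.563 CPM in *Ythdf2*-/-, the same order of libraries as *Gfap*. *Lifr*, the chain that binds LIF, was at 113, 113 and 71.9 CPM in wild type and at 129.9, 119 and 189 CPM in *Ythdf2*-/-, nearly the reverse order. *Il6st*, the shared chain gp130, and *Stat3* itself, both named after their values were seen, overlapped between genotypes, with log2 fold changes of 0.22 ± 0.27 and -0.32 ± 0.28.

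*Socs3*, which STAT3 induces and which in turn inhibits the receptor, was at 40.4, 59.0 and 475 CPM in wild type and at 15.2, 15.4 and 3.46 CPM in *Ythdf2*-/-. All *Ythdf2*-/- libraries were lower, as in *Gfap*, and the log2 fold change was -4.07 ± 1.17, or -2.13 ± 0.56 without wild-type replicate 3. In all, 2 of the 39 genes (5.13%, background 4.92%) were lower in all *Ythdf2*-/- libraries and 1 (2.56%, background 5.24%) was higher, and the median log2 fold change was 0.04. Without wild-type replicate 3, 4 were lower (10.3%, background 20.1%) and 18 higher (46.2%, background 18.8%), and the median was 0.24. The most highly counted of the list, *Ncor1*, *Notch1* and *Smad5*, overlapped between genotypes. Of the 39, wild-type replicate 3 was the highest library for 23 and the lowest for 8, against 33.8% and 34.4% of all genes.

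*Gfap* assembles with other intermediate filament proteins, and the abundant ones had other patterns. *Vim* was at 2523, 2271 and 1434 CPM in wild type and at 1616, 3032 and 1516 CPM in *Ythdf2*-/-, and *Nes* was at 1193, 1059 and 264 CPM in wild type and at 724, 1211 and 997 CPM in *Ythdf2*-/-. *Nes* was lowest in the library in which *Gfap* was highest. Of 10 genes tested in this list of 14, *Lmna*, which encodes the nuclear lamins A and C, separated the genotypes over the 6 libraries (10.0%, background 4.92%), and without wild-type replicate 3, 3 were lower (30.0%, background 20.1%) and 1 higher (10.0%, background 18.8%). *Lmna* was at 25.0, 25.1 and 25.9 CPM in wild type and at 13.2, 13.5 and 11.4 CPM in *Ythdf2*-/-. Its log2 fold change was -0.99 ± 0.15 (edgeR adjusted p = 0.999, DESeq2 called it at an adjusted p under 0.05). *Lmna* barely differed among the wild-type libraries, unlike *Gfap*.

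A list of 33 genes that astrocytes induce on injury or inflammation had 22 tested. Their median log2 fold change was -0.98, or -0.72 without wild-type replicate 3. All *Ythdf2*-/- libraries were lower in 7 of the 22 (31.8%, against 4.92% of all genes) and higher in 2 (9.09%, against 5.24%), and edgeR called 0. At an unadjusted p under 0.05 edgeR had 8 lower and 2 higher, against 476 of all 13112 genes in both directions. DESeq2 called *Hspb1* and *S1pr3*, both lower. Without wild-type replicate 3, 14 of 23 genes tested were lower (60.9%, background 20.1%) and 2 higher (8.70%, background 18.8%). The list was chosen with earlier results of these data known, so nothing is read from these counts. *Serpina3n*, a secreted protease inhibitor, was at 126, 175 and 188 CPM in wild type and at 20.4, 70.8 and 3.54 CPM in *Ythdf2*-/-, and wild-type replicate 3 did not stand apart in it. *Hspb1*, a small heat shock protein, was at 3.59, 4.19 and 5.94 CPM in wild type and at 0.596, 0.74 and 0.0804 CPM in *Ythdf2*-/-. *S1pr3*, a sphingosine phosphate receptor, was at 9.57, 11.3 and 24.6 CPM in wild type and at 2.56, 4.66 and 1.29 CPM in *Ythdf2*-/-. *Osmr* and *Ggta1* were the others named by size of change, while *B3gnt5*, with a log2 fold change of 0.35 ± 0.12, was higher. Most of the list was thinly counted, and 11 of 33 genes were too low to test.

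The genes most like *Gfap* over the 6 libraries were *Eps8l1* (r = 0.997), *Osmr* (r = 0.995), *Dapp1*, *Rgcc*, *C4b*, *Cd36*, *Agap3*, *Tceal3*, *Clu* (r = 0.976) and *Cdk5rap1*, out of 13111 ranked. Of all ranked genes, 165 had an r over 0.9. *Clu* thus ranked 9 and *Aqp4* 325, and no other member had an r over 0.5, although the rho of *Sparcl1* was 0.89. *C4b*, a complement component, was at 16.2, 20.6 and 61.5 CPM in wild type and at 5.11, 7.99 and 1.04 CPM in *Ythdf2*-/-. The spread of these genes differed widely, since *Agap3* ran only from 75.1 to 103 CPM. The 5 least like *Gfap* were *Arl5a*, *Pknox2*, *Lmf2*, *Cdc27* and *Slc38a10*, with r of -0.985 to -0.977. All 10 of the most similar genes stayed within the first 100 by Spearman's rho and without wild-type replicate 3. Both checks reuse the libraries on which the 10 were picked, so they do not test the likeness.

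**Figure D5:**
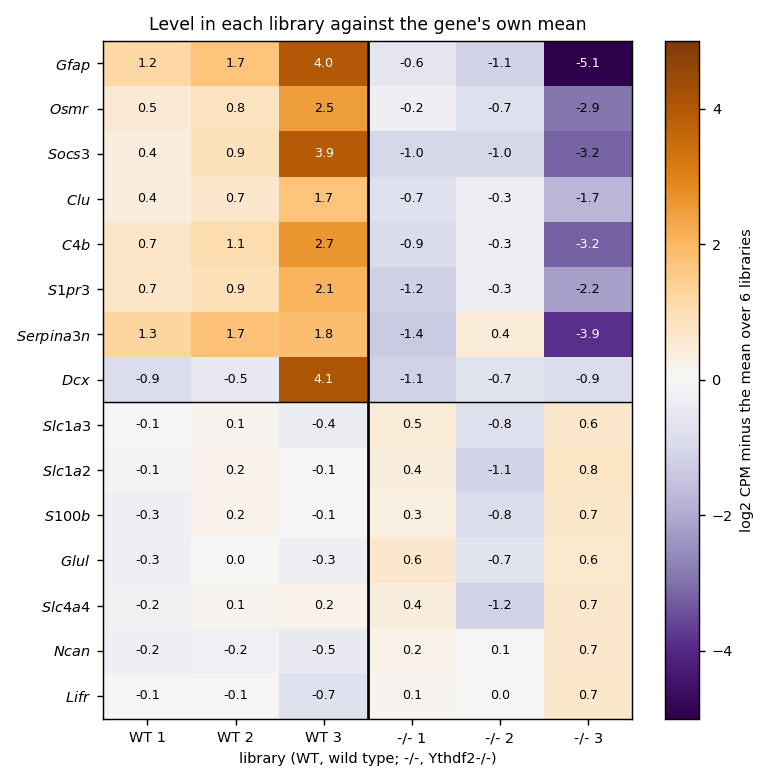
Log2 CPM of 15 genes in each library minus the gene's own mean over the 6 libraries; orange is above and purple below the mean, and the vertical line parts wild type (WT) from Ythdf2-/-. The upper 8 genes include Gfap and peak in wild-type replicate 3, and 5 of the lower 7 genes are lowest in Ythdf2-/- replicate 2.

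Oligodendrocyte and neuronal markers were mostly highest in wild-type replicate 3, where *Gfap*, *Clu* and *Aqp4* also peaked. Of 14 oligodendrocyte lineage genes tested, 11 were highest and 3 lowest in that library, against 33.8% and 34.4% of all genes. Of the 14, 5 were lower (35.7%, background 4.92%) and 2 higher (14.3%, background 5.24%) in all *Ythdf2*-/- libraries, and none was at 0. Their summed level was 1865 to 6253 CPM in wild type and 2032 to 2276 CPM in *Ythdf2*-/-. *Mbp*, a myelin protein gene, was at 6.67, 8.84 and 572 CPM in wild type and at 4.94, 4.29 and 1.21 CPM in *Ythdf2*-/-. Neuronal markers summed to 1798 to 2998 CPM in wild type and 1872 to 2212 CPM in *Ythdf2*-/-, and *Dcx*, of migrating neurons, was at 10.0, 13.1 and 315 CPM against 8.35, 11.3 and 9.89 CPM. *Stmn2* and *Rtn1* were lower in all *Ythdf2*-/- libraries (13.3% of 15 neuronal genes tested, background 4.92%), with log2 fold changes of -2.33 ± 0.63 and -0.21 ± 0.13. None of the 15 was higher in all, and *Map2* and *Tubb3* overlapped between genotypes. Leaving out wild-type replicate 3 moved the oligodendrocyte median log2 fold change from -2.82 to -0.34, and the neuronal one from -0.21 to 0.14. Of the oligodendrocyte genes 5 were then lower (35.7%, background 20.1%) and 2 higher (14.3%, background 18.8%). Of the neuronal genes 2 were lower (13.3%) and 2 higher (13.3%), against the same backgrounds. The part of these cells in the values of *Gfap*, *Clu* and *Aqp4* was not tested.

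The labelled cell type was checked on 15 radial glia and progenitor markers, all of which were tested. They summed to 12533, 12351 and 8525 CPM in wild-type replicates 1, 2 and 3 and to 11427 to 13679 CPM in *Ythdf2*-/-, so the library with the most *Gfap* had the lowest sum. Of these, *Sox2*, a factor of neural stem cells, was at 315 to 550.5 CPM and overlapped between genotypes. *Prom1* and *Hopx* were lower in all *Ythdf2*-/- libraries (13.3% of the 15, background 4.92%), with log2 fold changes of -2.43 ± 0.61 and -0.71 ± 0.31, and none was higher in all. With wild-type replicate 3 left out, 3 were lower (20.0%, background 20.1%) and 2 higher (13.3%, background 18.8%). Markers of microglia, endothelium, ependyma and mesenchyme were low. Microglial markers summed to 40.0 to 46.5 CPM in wild type and 40.3 to 59.4 CPM in *Ythdf2*-/-, and *Ptprc*, *C1qa*, *C1qb*, *C1qc* and *Trem2* were at 0 in all libraries. Endothelial markers summed to at most 6.41 CPM, with *Cldn5* at 0, and ependymal markers to at most 35.1 CPM, with *Tmem212* and *Pifo* at 0. Mesenchymal markers summed to 35.3 to 204 CPM in wild type and at most 64.8 CPM in *Ythdf2*-/-, highest in wild-type replicate 3.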

How the data were processed

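Gene read counts per input library (featureCounts, per the submitters' processing notes) were deposited by the authors as raw counts. The header of those tables names a TopHat alignment, the build is mm10, and the strand setting is not given in the sources used here. Expected counts, TPM and FPKM were deposited by the authors from RSEM 1.2.15 with Bowtie2 2.2.9. The sum of expected counts was 234725 to 272646 a library, 1.97% to 2.40% of the raw counts, so FPKM served as an alternative and TPM was not used.

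Raw counts were scaled by TMM and fitted with the quasi-likelihood test of edgeR 4.0.16 on 6 libraries after filterByExpr, with Benjamini-Hochberg adjustment. DESeq2 1.42.0 and limma 3.58.1 were alternatives, with other filters, size factors, prior counts and left-out libraries. Log2 CPM used a prior count of 2. On simulated counts with 200 genes changed 4-fold, 97% were recovered at a biological coefficient of variation of 0.15 (13012 genes) and 86% at 0.33 (12968 genes), which does not cover genes that vary as *Gfap* did. Annotated exons of *Aldh1l1*, *Slc1a2* and *Glul* share bases with exons of *Gm15756* (106 bases), *Gm13872* (166 bases) and *Mir8114* (108 bases), and reads there were not examined. Library pairs of 1 genotype differed by more than sampling noise.

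The members and gene lists were chosen with earlier results of these data known, so the share of a list that separated the genotypes is a description and not a test. Named genes were the members, in each list the 3 most highly counted and up to 5 largest log2 fold changes among genes separating the genotypes, the genes most and least like *Gfap* (also among other astrocyte genes), and *Ythdf2*, *Map2*, *Tubb3*, *Dcx*, *Sox2* and *Nes*. Some genes that this rule picks are not reported here.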

Additional observations from a re-analysis of the deposited data

How the results depend on the processing

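*Gfap* kept its sign under all 16 alternatives, from -5.64 with a term for Y-linked reads to -2.85 without wild-type replicate 3. The median of the other 9 members ranged from -0.10 to 0.18 with libraries left out. Deposited FPKM, in which members had 0 to 98.0 expected counts a library, turned *Clu* to 0.12 and *S100b* to -0.88. These 2 genes had only 0 to 3 expected counts a library. FPKM also moved *Sparcl1* to -2.52 and *Aldh1l1* to 0.49. With limma-voom *Sparcl1* was at -1.30. With libraries left out, *Apoe* ranged from -0.71 to 0.36, *Slc1a2* from -0.20 to 0.59, *S100b* from -0.10 to 0.56 and *Aldh1l1* from -0.08 to 0.27. The cause of these turns was not tested.

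The number of all genes called was 0 with edgeR, 1 with DESeq2 size factors, no filter, or at least 10 counts in every library (*Ythdf2* each time), 31 with DESeq2, 13 with the Y-linked term, and 0 to 2 with libraries left out. Genes called in the other lists went from 0 to 5 with DESeq2 (*Lmna*, *Prom1*, *Hspb1*, *Socs3*, *S1pr3*) and to 3 with the Y-linked term (*Enpp6*, *Socs3*, *Osmr*). For other astrocyte genes called, the count was 0 in each of these and in each fit without a library. Other astrocyte genes separated downward numbered 1, 0 with at least 10 counts in every library, and 1 to 6 with libraries left out (1.47% to 8.96%, against 7.15% to 20.1% of all genes). Upward there were 4, and 4 to 17 with libraries left out. The 17 came without *Ythdf2*-/- replicate 2 (25.0%, against 11.02% of all genes), and the other fits gave 5.88% to 13.4%, against 7.25% to 18.8% of all genes. Required within both Y-linked sets, an alternative chosen after seeing the data, 12 were lower and 12 higher (17.9% each, against 15.5% and 15.6% of all genes).

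Replicate numbers did not pair the libraries, as the deviations of same-numbered libraries had r of -0.25, -0.24 and -0.39. The replicate block gave *Gfap* -3.83, the other 9 a median of 0.03, and 0 genes called. The low *Gfap* value of *Ythdf2*-/- replicate 3 came from 69 reads, and prior counts of 0.5 and 5 gave *Gfap* log2 fold changes of -4.57 and -4.53. Depth limits the thinly counted injury genes.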
